A study of Sus scrofa with 2 samples.

Results

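The 10 genes described here are 5 chemokines (CXCL2, CXCL12, CCL26, CCL21 and CCL5), the interleukin-1 receptor IL1R1, the transcription factor STAT3, and 3 genes of the NF-kB pathway (NFKBIA, NFKB1 and MAP3K8). They were chosen by symbol after their levels and their ratios between the libraries had been seen in earlier results, and all 10 are among the 31908 genes of both count matrices. Nuclei of the frozen free wall of the left ventricle of Bama pigs, a miniature breed, had been sequenced for their RNA one by one. The TG library was labelled as triple-transgenic, with a variant form of PNPLA3, a dominant-negative GIP receptor (GIPRdn) and human islet amyloid polypeptide (hIAPP), and the promoters that drive these transgenes are not given in the sources used here. The WT library was labelled wild type, and both genotypes had been fed a high-fat, high-sucrose diet for 12 months. With 1 library per genotype, genotype, animal and tissue preparation cannot be told apart, so every difference below is a difference between these libraries, with no replicate check and no p-value.

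Chemokines are small secreted proteins that guide white blood cells along a gradient, and CXC and CC name the spacing of their first cysteines. NF-kB is a family of transcription factors held in the cytoplasm by inhibitor proteins such as the product of NFKBIA. Signals such as interleukin-1 binding to IL1R1 lead to breakdown of the inhibitor, entry of NF-kB into the nucleus and transcription of genes that include CXCL2, CCL5 and NFKBIA itself. STAT3 is the transcription factor activated by interleukin-6 and related cytokines, and MAP3K8 is a kinase that is held by the NFKB1 precursor protein until stimulation.

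The TG library held 89324966 UMIs (counted RNA molecules) in 15000 barcodes, and the WT library 127126477 UMIs in 18251 barcodes. Filters left 14939 TG nuclei, at a median depth of 3937 UMIs, and 16725 WT nuclei, at a median depth of 5442 UMIs. The libraries shared 81 barcodes. Levels are UMIs per 1000000 nuclear-encoded UMIs of a cell class (CPM), and every interval given is a 95% interval for counting error only. Nuclei were grouped into 9 classes named from marker genes, from 5369 TG and 6821 WT cardiomyocyte-like nuclei down to 133 TG and 167 WT Schwann or neural-like nuclei, and another 16.4% of TG and 9.71% of WT nuclei lay in mixed clusters that were left out. All 11 measured cardiomyocyte markers were above 20 CPM in the cardiomyocyte-like nuclei of both libraries. In the other 8 classes these markers had a median level of 40% to 79.2% of their cardiomyocyte level in TG and 15.7% to 43.6% in WT, higher in TG in 8 of 8 classes. Part of every low level below can therefore be RNA from other cells, more so in TG, and the part it has in each difference was not tested. Different clusters held most of 2 classes in the libraries: clusters 1, 11 and 2 held most TG and clusters 0 and 2 most WT cardiomyocyte-like nuclei, and cluster 6 held 2019 of 2068 TG and cluster 3 held 2776 of 2825 WT fibroblast-like nuclei.

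A gene was called higher or lower in TG in a class when the ratio of its CPM was at least 1.5 in either direction, the interval of the ratio left out 1, and the libraries together held at least 20 of its UMIs. Of the 90 pairs of gene and class, 81 reached 20 UMIs, and of these 39 were higher, 7 lower and 35 neither. Over all measured genes 16.5% of 112703 pairs were higher and 10.5% lower. Over the 5 chemokines 26 of 37 measured pairs were higher and 5 lower, and 12 of these 26 were CCL21 outside lymphatic endothelial-like nuclei (8) or CCL5 outside T or NK lymphocyte-like nuclei (4), low levels from which no difference is read below. Some of the other higher calls, such as CXCL2 and CXCL12 in cardiomyocyte-like nuclei, also rested on low levels. IL1R1 was higher in 5 of 8 classes and lower in 1. Over STAT3, NFKBIA, NFKB1 and MAP3K8, 8 of 36 pairs were higher and 1 was lower. The genes were chosen with such values in view, so these counts describe them and support nothing further.

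**Figure D1:**
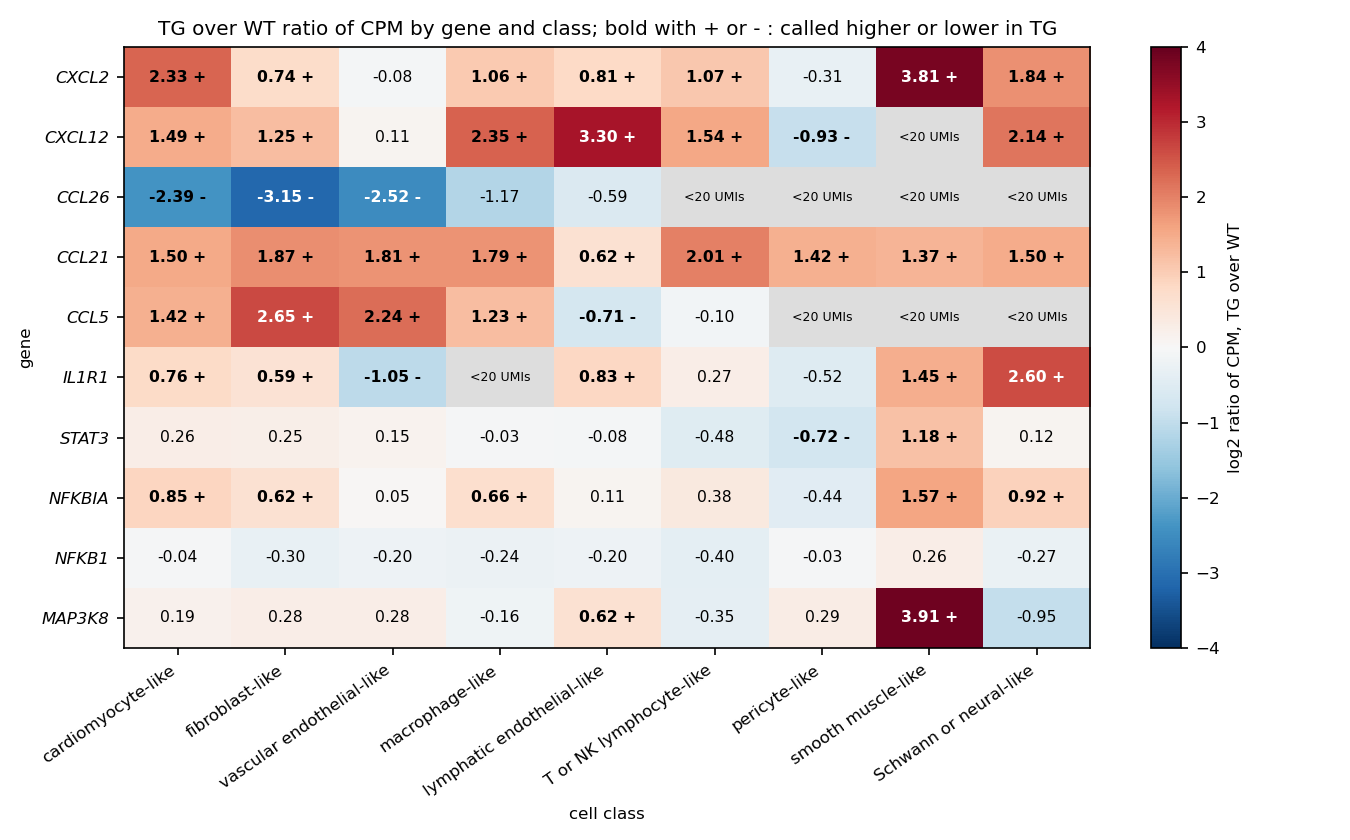
Log2 ratio of CPM, TG over WT, for each gene (rows) and cell class (columns). Bold values with a plus or minus sign met the call rule, and grey cells held fewer than 20 UMIs over both libraries. The CCL21 row is higher in TG in all 9 classes, the NFKB1 row has no call, and MAP3K8 and CXCL2 reach 3.91 and 3.81 in smooth muscle-like nuclei.

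By class the counts stood beside unequal shares of all measured genes. In cardiomyocyte-like nuclei 6 of the 10 genes were higher and 1 lower, where 25.5% of all measured genes were higher and 8.81% lower. In fibroblast-like nuclei 6 were higher and 1 lower, against 17.9% and 8.88% of all genes. Vascular endothelial-like nuclei had 2 higher and 2 lower, against 11.8% and 8.35%, and lymphatic endothelial-like nuclei had 5 higher and 1 lower, against 11.9% and 7.95%. Of the 5 higher calls in the lymphatic class, CCL21 (1.54) and MAP3K8 (1.53) lay just past the threshold. Macrophage-like nuclei had 5 of 9 measured genes higher and 0 lower (16.9% and 9.54% of all genes), and T or NK lymphocyte-like nuclei had 3 of 9 higher and 0 lower (17.0% and 14.8%). Pericyte-like nuclei were the only class with more of the genes lower than higher, 2 against 1 of 8, and there more of all genes were lower too (12.2% higher, 18.6% lower). Smooth muscle-like nuclei had 6 of 7 measured genes higher and 0 lower (16.8% and 10.1%), and Schwann or neural-like nuclei had 5 of 8 higher and 0 lower (11.3% and 9.63%).

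CXCL2, a chemokine that draws neutrophils, was highest in vascular endothelial-like nuclei, at 295 CPM in TG (interval 284 to 307) and 311 CPM in WT (294 to 329), a ratio of 0.95. That class held 48.7% of the CXCL2 UMIs of the kept TG nuclei and 37.3% of those of WT. Outside it the gene was higher in TG in 7 of 8 classes. Macrophage-like nuclei, second in TG, had 121 CPM in TG and 58.5 CPM in WT (ratio 2.08, interval 1.79 to 2.40), and lymphatic endothelial-like nuclei had 85.0 and 48.7 CPM (1.75, 1.42 to 2.14). The largest ratio stood in smooth muscle-like nuclei, at 75.3 CPM in TG (43 UMIs) and 5.09 CPM in WT (7 UMIs), a ratio of 14.8 (6.60 to 39.0), with 74.4% of the TG UMIs in 10 nuclei. The free-RNA subtraction described below left no value for CXCL2 in these nuclei, nor in fibroblast-like, T or NK lymphocyte-like and Schwann or neural-like nuclei. Cardiomyocyte-like nuclei were lowest in both libraries, at 5.17 CPM in TG and 1.03 CPM in WT, low levels from which no difference is read. In pericyte-like nuclei, second in WT, the level was 66.3 CPM in TG and 82.2 CPM in WT, with an interval of the ratio from 0.618 to 1.05. In TG the levels of lymphatic endothelial-like, smooth muscle-like, pericyte-like and Schwann or neural-like nuclei overlapped from each class to the next. The call in fibroblast-like nuclei (25.9 and 15.5 CPM) was lost under 3 of 11 alternative settings (those below other than the free-RNA subtraction) and that in lymphatic endothelial-like nuclei under 4 of 11, with ratios down to 1.35 and 1.20. CXCL2 lies at chr8:70157253-70159145 of Sscrofa11.1, and whether other CXC genes share its reads was not tested.

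**Figure D2:**
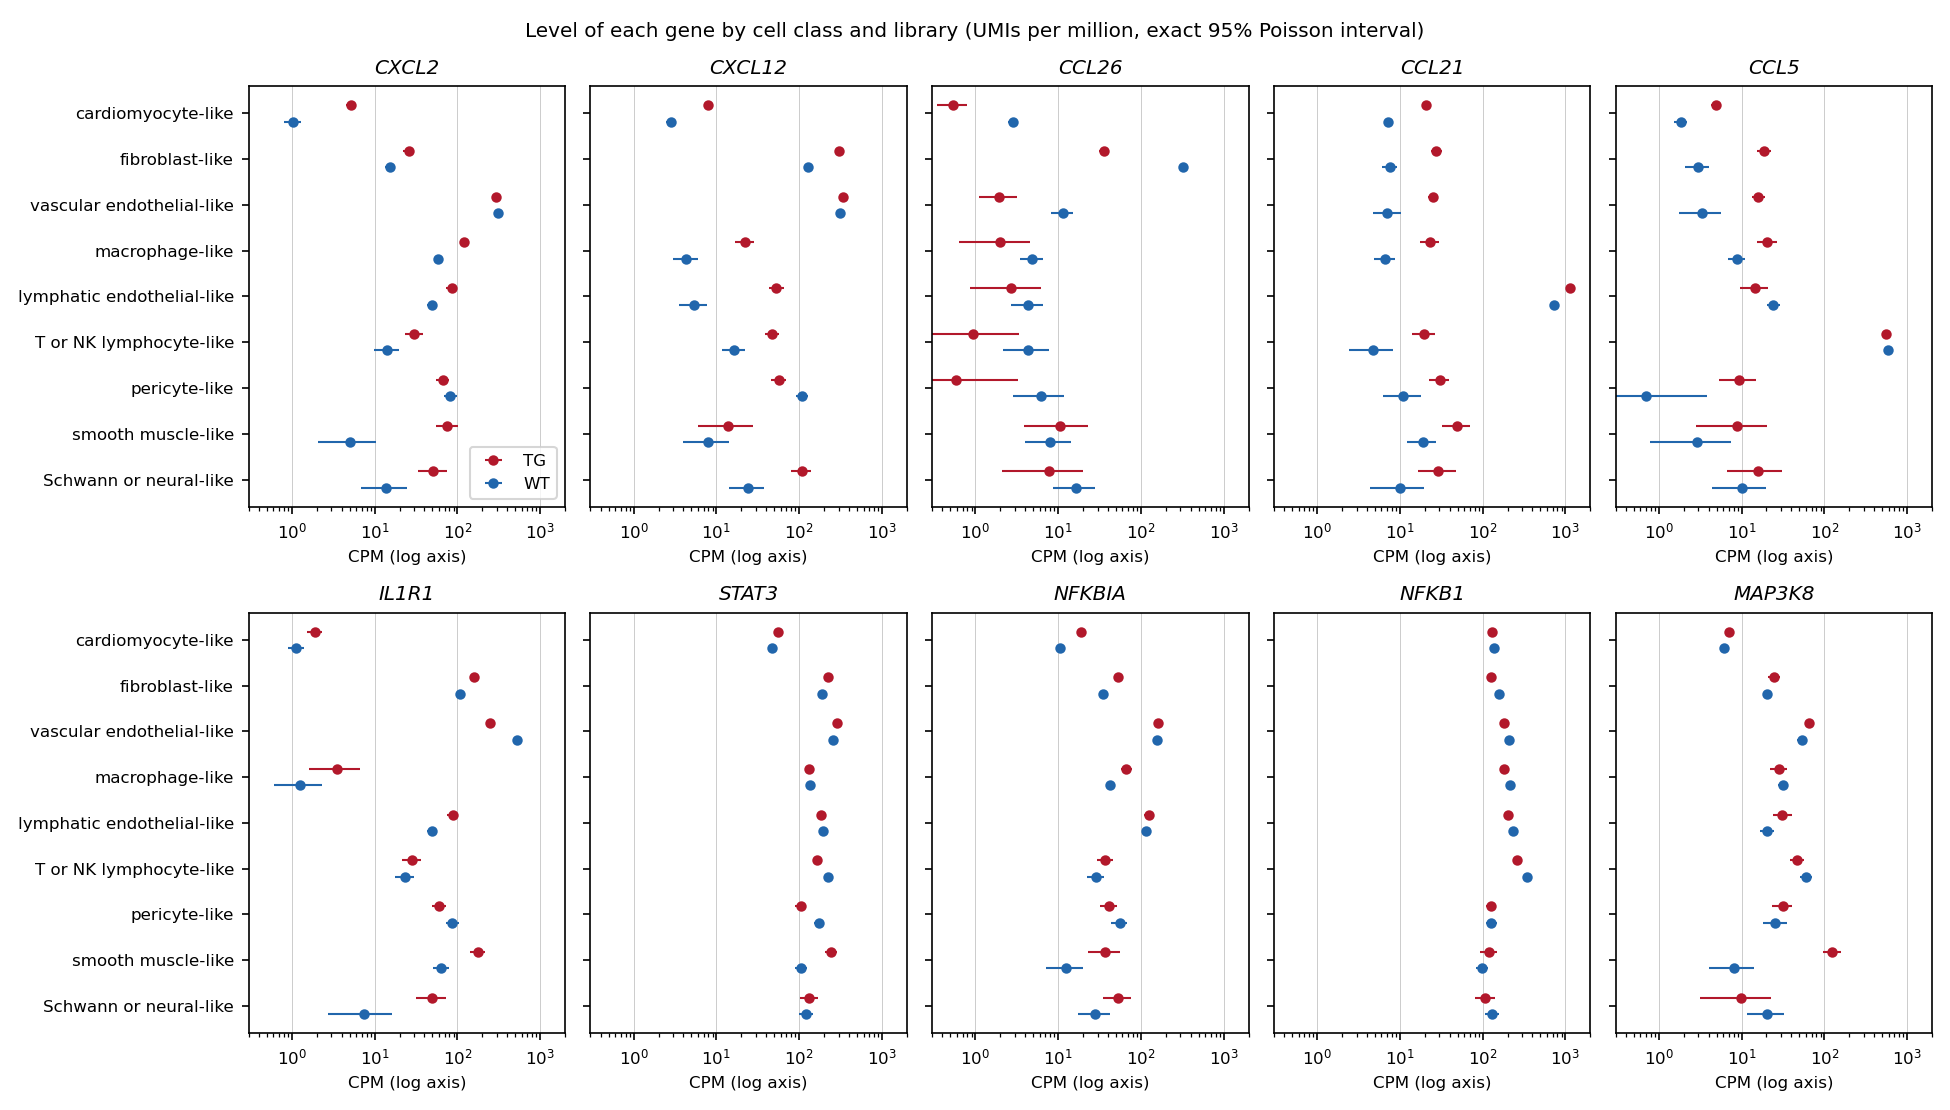
Level of each gene in CPM (log axis) in each cell class, TG above WT, with exact 95% Poisson intervals for counting error. Each chemokine has its highest class in common between the libraries, CCL26 in fibroblast-like nuclei stands at 35.9 CPM in TG and 320 CPM in WT, and NFKB1 varies least over the classes.

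CXCL12, which retains and attracts cells that carry the receptor CXCR4, was highest in vascular endothelial-like nuclei and next in fibroblast-like nuclei in both libraries. The vascular endothelial-like level was 340 CPM in TG and 316 CPM in WT (ratio 1.08, 1.01 to 1.15), while both clusters of the class, given below, had ratios under 1. In fibroblast-like nuclei it was 305 CPM in TG (292 to 320) and 129 CPM in WT (122 to 135), a ratio of 2.38 (2.22 to 2.54). Fibroblast-like nuclei with at least 1 UMI made up 45.1% in TG and 32.8% in WT, and after thinning each nucleus to 1000 UMIs 23.5% in TG and 12.5% in WT, against 0.969% and 0.326% of thinned cardiomyocyte-like nuclei. The median depth was 2673 UMIs in TG and 4017 in WT for fibroblast-like nuclei, and 7649 and 10067 for cardiomyocyte-like nuclei. The CXCL12 ratio of fibroblast-like nuclei ran from 2.14 to 2.77 over 11 alternative settings, and the call held under all 11. Lymphatic endothelial-like nuclei had 53.3 CPM in TG and 5.34 CPM in WT, a ratio of 9.97 (6.46 to 15.9), from 99 and 27 UMIs. The free-RNA subtraction described below left no value for CXCL12 in this class, nor in macrophage-like, T or NK lymphocyte-like and pericyte-like nuclei. Pericyte-like nuclei went the other way, at 57.0 CPM in TG and 108 CPM in WT (0.526, 0.404 to 0.681). That pericyte-like call was lost under 5 of 11 alternatives, and the ratio was 1.22 at Leiden resolution 0.5 and 1.02 when the 10 genes were left out of the clustering. The marker genes of the class itself were lower in these nuclei in TG, with the 12 pericyte markers summing to 2621 CPM in TG and 6583 CPM in WT, and none of them was at 0. CXCL12 lies at chr14:91516383-91543857.

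CCL26, an eotaxin that attracts eosinophils, was the one chemokine of the 5 with no class higher in TG. It was mostly in fibroblast-like nuclei, which held 57.5% of its UMIs in TG and 77.3% in WT. They had 35.9 CPM in TG (31.3 to 40.9, 219 UMIs) and 320 CPM in WT (310 to 330, 3913 UMIs), a ratio of 0.112 (0.0973 to 0.128). Nuclei with at least 1 UMI made up 7.98% in TG and 43.5% in WT, and 3.05% and 21.4% after thinning, against 0.130% and 0.430% of thinned cardiomyocyte-like nuclei. The ratio lay between 0.0881 and 0.125 over 11 alternative settings. In the other 8 classes the level was 0.532 to 10.5 CPM in TG and 2.84 to 16.3 CPM in WT, and 4 of these classes held fewer than 20 UMIs. Cardiomyocyte-like nuclei (0.532 and 2.84 CPM) and vascular endothelial-like nuclei (1.94 and 11.4 CPM) were also called lower in TG. In both libraries the intervals of the 8 classes overlapped from each class to the next, so no difference is read from these low levels. The free-RNA subtraction described below left no value for the vascular endothelial-like class. Macrophage-like (0.408, 0.125 to 1.04) and lymphatic endothelial-like nuclei (0.618, 0.183 to 1.67) met no call. CCL26 lies at chr3:10381306-10385677.

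CCL21, the chemokine by which lymphatic vessels draw dendritic cells and T cells, was highest in lymphatic endothelial-like nuclei. They had 1139 CPM in TG (2118 UMIs) and 739 CPM in WT (3736 UMIs), a ratio of 1.54 (1.46 to 1.63), just past the threshold. Under 6 of 11 alternatives the ratio of this class was under 1.5, with a lowest value of 1.31. Thinned lymphatic endothelial-like nuclei with at least 1 UMI made up 57.7% in TG and 46.9% in WT. Every other class was called higher in TG as well, with ratios from 2.60 to 4.16. Those 8 classes lay close together, from 19.6 CPM in T or NK lymphocyte-like to 49.0 CPM in smooth muscle-like nuclei in TG, and from 4.73 to 18.9 CPM in the same classes in WT. In both libraries the interval of each of these 8 classes overlapped that of the next, so no difference between them, and none between the libraries, is read from these like low levels. Lymphatic endothelial-like nuclei held 42.7% of the CCL21 UMIs of the TG nuclei and 71.3% of those of the WT nuclei. CCL21 lies at chr10:32093783-32094482.

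CCL5, a T cell and NK cell chemokine also called RANTES, belonged to T or NK lymphocyte-like nuclei, with 554 CPM in TG (523 to 587) and 594 CPM in WT (564 to 624). The ratio of 0.93 (0.864 to 1.01) met no call. The counts were spread differently over these nuclei. In TG the 10 nuclei with most CCL5 held 11.6% of the UMIs and no nucleus had more than 16, whereas in WT 10 nuclei held 22.6% and the highest had 76. Nuclei with a UMI made up 67.8% in TG and 42.8% in WT, or 40% and 26.2% after thinning, and since the CPM did not differ in that direction no order is read from these shares. In thinned cardiomyocyte-like nuclei the shares were 0.652% in TG and 0.281% in WT. Outside the lymphocytes CCL5 was at 4.92 to 20.5 CPM in TG and 0.690 to 24.1 CPM in WT, and it was called higher in TG in cardiomyocyte-like, fibroblast-like, vascular endothelial-like and macrophage-like nuclei. No difference is read from these low levels. They were not even over nuclei, since in macrophage-like nuclei 10 nuclei held 71.2% of the UMIs in TG and 87.0% in WT. Lymphatic endothelial-like nuclei were the exception in direction, with 14.5 CPM in TG and 24.1 CPM in WT (0.602, 0.381 to 0.919), a call that was lost in thinned nuclei, where the ratio was 1.06. CCL5 lies at chr12:39652731-39659121.

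IL1R1, the receptor that starts the interleukin-1 signal, was highest in vascular endothelial-like nuclei, with 251 CPM in TG (241 to 262) and 519 CPM in WT (497 to 542). This was the class in which it was called lower, with a ratio of 0.48 (0.455 to 0.515). In smooth muscle-like nuclei it was 175 CPM in TG and 63.9 CPM in WT (2.74, 2.04 to 3.69), in fibroblast-like nuclei 160 and 107 CPM (1.5, 1.38 to 1.63), and in lymphatic endothelial-like nuclei 87.7 and 49.3 CPM (1.78, 1.45 to 2.18). The fibroblast-like value sat on the threshold, and its call held under only 4 of 11 alternatives. Schwann or neural-like nuclei had 25 UMIs in TG and 6 in WT, or 48.7 and 7.54 CPM. Cardiomyocyte-like nuclei were near 0 in both libraries, at 1.89 CPM in TG and 1.12 CPM in WT, and macrophage-like nuclei held 9 UMIs in TG and 10 in WT. IL1R1 was thus above 20 CPM only in the stromal, vascular, lymphocyte-like and, in TG, Schwann or neural-like nuclei. IL1R1 lies at chr3:52192912-52334734 and overlaps the annotated long non-coding gene LOC110259975 there.

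The vascular endothelial-like class was made of 2 clusters in unequal parts, and IL1R1 separated them. Cluster 9 held 570 of 2509 TG nuclei and 484 of 1125 WT nuclei of the class, and its IL1R1 level was 759 CPM in TG and 956 CPM in WT (0.795, 0.745 to 0.847). In cluster 4 IL1R1 was 51.0 CPM in TG and 32.0 CPM in WT (1.59, 1.20 to 2.14). The lower class level of IL1R1 in TG thus stood beside a smaller share of cluster 9 nuclei, and with both clusters weighted equally, an alternative chosen after seeing the data, the ratio was 0.82 and no longer called. The call was also lost with each library clustered on its own, at 0.67. CXCL12 had the opposite pattern over the clusters. It was 451 CPM in TG and 573 CPM in WT in cluster 4 (0.787, 0.733 to 0.846) and 59.6 and 85.1 CPM in cluster 9 (0.700, 0.557 to 0.879). Neither met a call, and both ratios were below 1, beside a class ratio of 1.08. CXCL2 was called higher in TG in cluster 4, at 274 and 161 CPM (1.71, 1.51 to 1.94), and not in cluster 9, at 348 and 446 CPM (0.781, 0.710 to 0.859). Its class ratio of 0.95 was therefore made of values on both sides of 1, and the difference between the clusters was not tested. MAP3K8 was 48.5 CPM in TG and 29.9 CPM in WT in cluster 4 (1.62) and 106 and 74.1 CPM in cluster 9 (1.43). The genes were part of the clustering, so their levels in a cluster describe it.

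**Figure D3:**
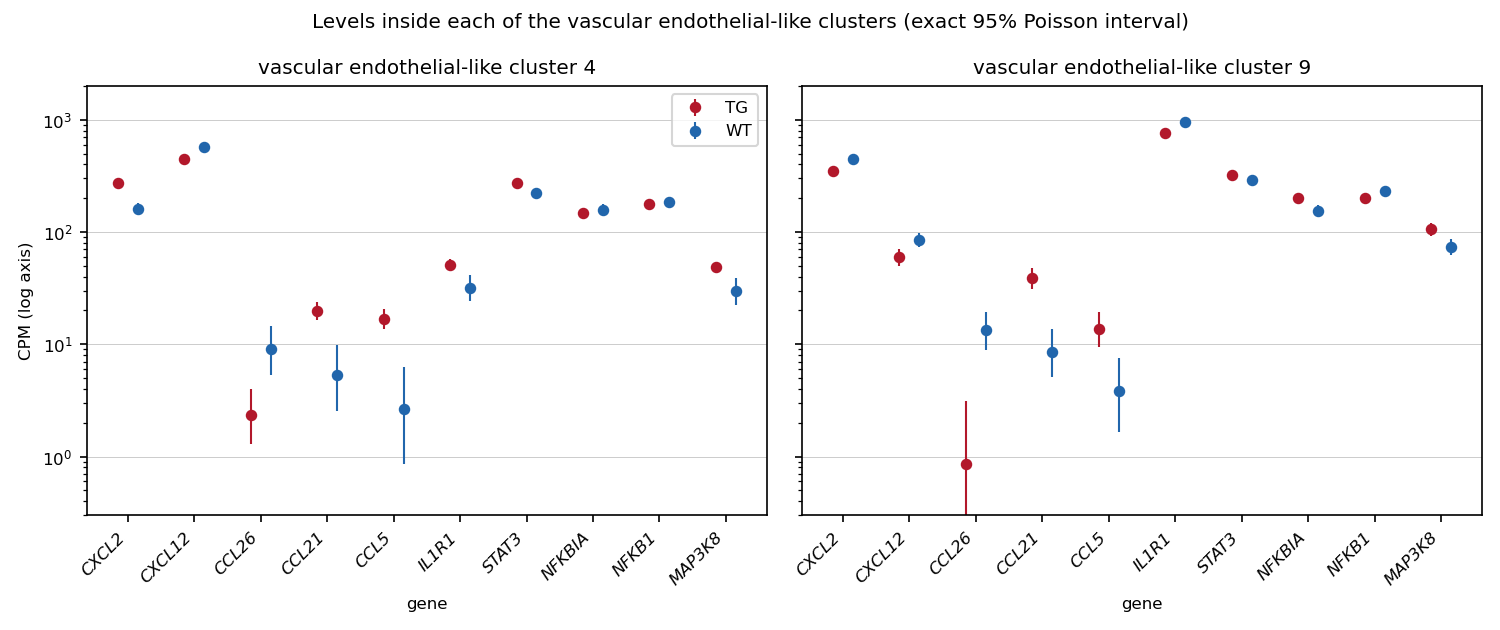
Level of each gene in CPM (log axis) in the vascular endothelial-like clusters 4 (left) and 9 (right), TG in red and WT in blue, with exact 95% Poisson intervals. IL1R1 is at 759 and 956 CPM in cluster 9 and at 51.0 and 32.0 CPM in cluster 4, and CXCL2 is called higher in TG in cluster 4 (1.71) and not called in cluster 9 (0.781).

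STAT3 was measured in all 9 classes and was called in 2 of them. Its highest level was in vascular endothelial-like nuclei, at 288 CPM in TG and 259 CPM in WT (1.11, 1.03 to 1.20), and its lowest in cardiomyocyte-like nuclei, at 56.3 and 47.1 CPM. The interval of its highest class overlapped that of smooth muscle-like nuclei in TG and that of T or NK lymphocyte-like nuclei in WT, so no single class stood highest. The 5 chemokines, IL1R1, NFKBIA and NFKB1 each had a highest class whose interval was clear of the next in both libraries. Smooth muscle-like nuclei had 242 CPM in TG and 107 CPM in WT (2.26, 1.78 to 2.87), a call held under all 8 alternatives that had this class. Of these 8, only the one with a looser nucleus filter clustered the nuclei anew, and the other ways of clustering, given below, found no such class. Pericyte-like nuclei had 105 CPM in TG and 173 CPM in WT (0.606, 0.498 to 0.737). The pericyte-like call was lost under 5 of 11 alternatives, with ratios of 1.26 at Leiden resolution 0.5 and 1.05 without the 10 genes in the clustering, as for CXCL12. In the other 7 classes the ratio ran from 0.72 in T or NK lymphocyte-like to 1.20 in cardiomyocyte-like nuclei. STAT3 lies at chr12:20407316-20471091.

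NFKBIA, the inhibitor that NF-kB itself induces, was highest in vascular endothelial-like nuclei, at 162 CPM in TG and 156 CPM in WT (1.04, 0.941 to 1.14). Lymphatic endothelial-like nuclei followed, at 125 and 116 CPM (1.08, 0.920 to 1.25). Where the gene was high, the libraries thus differed by less than the threshold. The 5 calls, all higher in TG, were in classes with less of it. Cardiomyocyte-like nuclei had 19.0 CPM in TG and 10.5 CPM in WT (1.80, 1.63 to 1.98), macrophage-like nuclei 66.6 and 42.2 CPM (1.58), fibroblast-like nuclei 53.5 and 34.8 CPM (1.54), Schwann or neural-like nuclei 52.6 and 27.7 CPM (1.90), and smooth muscle-like nuclei 36.8 and 12.4 CPM (2.98, 1.5 to 6.01). The macrophage-like and fibroblast-like calls each held under 7 of 11 alternatives. NFKBIA lies at chr7:64508119-64510754 and overlaps the annotated long non-coding gene LOC110261573.

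NFKB1, which encodes the p105 precursor and the p50 subunit of NF-kB, was called in none of the 9 classes, and its ratio stayed between 0.76 and 1.20. T or NK lymphocyte-like nuclei had the highest level, at 258 CPM in TG (237 to 281) and 341 CPM in WT (318 to 364), with the lowest ratio, 0.758 (0.680 to 0.844). It was also the most even gene over the classes, from 107 CPM in Schwann or neural-like nuclei in TG and 99.5 CPM in smooth muscle-like nuclei in WT upward, so that the highest class was 2.41 times the lowest in TG and 3.42 times in WT. In cardiomyocyte-like nuclei, where 6185 TG and 10179 WT UMIs made it precise, the level was 132 CPM in TG and 136 CPM in WT (0.971, 0.941 to 1.00). The class with the precise count thus had a ratio near 1, and 8 of the 9 classes had a ratio below it. NFKB1 lies at chr8:118391010-118478927.

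MAP3K8, a kinase also known as TPL2 or COT, differed most in smooth muscle-like nuclei, the contractile cells of vessel walls. There it was 124 CPM in TG (97.1 to 157, 71 UMIs) and 7.99 CPM in WT (3.99 to 14.3, 11 UMIs), a ratio of 15.6 (8.19 to 32.6). The level in TG was the highest of any class of that library, clear of the next, and in WT the class was second lowest. T or NK lymphocyte-like nuclei, with 47.2 CPM in TG and 60.3 CPM in WT, were highest in WT, where they overlapped vascular endothelial-like nuclei (64.7 and 53.2 CPM). It was not spread over all nuclei: 22.0% of TG and 3.01% of WT smooth muscle-like nuclei had a UMI (11.0% and 0.772% after thinning), and 10 nuclei held 56.3% of the TG UMIs. In thinned cardiomyocyte-like nuclei the share was 0.596% in TG and 0.593% in WT. The call held under all 8 alternatives that had a smooth muscle-like class, with ratios of 12.6 to 18.7, other than the free-RNA subtraction described below. Of these 8, only the one with a looser nucleus filter clustered the nuclei anew. No smooth muscle-like class was found at Leiden resolution 0.5, with each library clustered on its own, or without the 10 genes in the clustering. The other call was in lymphatic endothelial-like nuclei, at 31.2 CPM in TG and 20.4 CPM in WT (1.53, 1.09 to 2.13), and it held under 4 of 11 alternatives. Elsewhere the ratio lay between 0.48 and 1.23. MAP3K8 lies at chr10:40714004-40746390.

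Smooth muscle-like nuclei were few, 173 in TG and 266 in WT, and all 11 markers of the class were above 20 CPM in both libraries. Markers of other classes differed there as well. The 12 pericyte markers summed to 1986 CPM in TG, with STEAP4 at 0, and to 1416 CPM in WT with none at 0. Their median was 134 CPM in TG and 58.1 CPM in WT. Marker by marker, they stood at a median of 76.2% of their level in pericyte-like nuclei in TG and 13.7% in WT, where that pericyte-like level was itself lower in TG. The 15 vascular endothelial markers summed to 525 CPM in TG and 382 CPM in WT, none at 0, the 14 fibroblast markers to 1037 CPM in TG, none at 0, and 1569 CPM in WT with NEGR1 at 0, and the 11 cardiomyocyte markers to 20229 CPM in TG and 17758 CPM in WT. Genes of the immediate early and heat shock response, which cells switch on within minutes of stress or tissue handling, were lower in TG in this class: 13 of 16 measured were lower and 0 higher, against 10.1% and 16.8% of all genes of the class, among them ATF3 at 135 CPM in TG and 1256 CPM in WT (0.107, 0.0843 to 0.135). In each of the other 8 classes 5 to 8 genes of this list were lower as well, and over the 9 classes 44.9% of its 138 measured pairs were lower, against 10.5% over all genes. In the smooth muscle-like class MAP3K8, CXCL2 and NFKBIA were thus higher in TG in nuclei most of whose immediate early and heat shock genes were lower. The part of these markers and genes in the differences of the class was not tested.

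Cardiomyocyte-like nuclei of both libraries met in cluster 2, with 778 TG and 2081 WT nuclei, which allows the same values within 1 cluster. The ligand ratios had the same direction there as in the whole class. These levels were low and the part of free RNA in them was not tested. No difference between the libraries is read from them for the 5 ligands. CXCL2 was 5.31 CPM in TG and 1.01 CPM in WT (5.25, 2.71 to 10.3), CXCL12 10.1 and 3.51 CPM (2.89, 1.91 to 4.31), CCL21 26.6 and 8.20 CPM (3.24, 2.51 to 4.17), and CCL26 1 UMI in TG against 78 in WT. CCL5 was 7.73 CPM in TG and 2.08 CPM in WT (3.72, 2.26 to 6.10). NFKBIA was 20.3 CPM in TG and 10.8 CPM in WT (1.88, 1.44 to 2.43). NFKB1 (126 and 138 CPM) and MAP3K8 (6.04 and 6.87 CPM) met no call, and IL1R1, called higher in the whole class, was 1.93 CPM in TG and 2.08 CPM in WT. Of the 10 genes 5 were higher in TG in this cluster, 1 was lower and 4 were neither. The share of all genes called within the cluster was not computed, so nothing is read from this count. In the whole class 25.5% of all genes were higher and 8.81% lower.

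As a stand-in for free RNA, the summed profile of all kept nuclei of a library was taken off each class, at the share set by its cardiomyocyte markers. This removed 49.2% to 90% of the UMIs in TG and 21.5% to 62.9% in WT, where 90% is the preset cap, reached in TG pericyte-like nuclei. Free RNA itself was not measured. The profile also holds the RNA of each class itself, so these shares, and the values lost, are not measures of free RNA. The ratio of CCL26 in fibroblast-like nuclei was then 0.22, and that of CXCL12 there was 4.32. CXCL2 in macrophage-like nuclei stood at 5.06, and CCL21 in lymphatic endothelial-like nuclei at 2.35. These ratios stayed past 1.5-fold, the only part of the call rule used here, and lay over 1.5 times away from the values above. CCL5 in T or NK lymphocyte-like nuclei, not called above, had a ratio of 2.85, and NFKB1 had ratios of 1.59 in T or NK lymphocyte-like, 0.588 in fibroblast-like and 0.123 in smooth muscle-like nuclei. IL1R1 in vascular endothelial-like nuclei, at 0.72, was no longer called lower. No value was left where the level fell to 0 or below in a library. This held for CXCL12 in lymphatic endothelial-like and CXCL2 in smooth muscle-like nuclei, among others. STAT3 in fibroblast-like nuclei was 1.86, and in smooth muscle-like nuclei IL1R1 stood at 7.54, STAT3 at 6.23 and MAP3K8 at 272. In the smooth muscle-like class 79.5% of the UMIs in TG and 46.9% in WT had been taken off. MAP3K8 had only 7.99 CPM in WT before that, from 11 UMIs. The sizes of the ratios in this class, with no interval, are therefore not read. NFKB1 and lymphocyte CCL5 thus passed 1.5-fold after the subtraction, by the fold alone, where they met no call before it. CCL26 in fibroblast-like nuclei kept its direction.

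Lists of related genes were compiled with earlier results of these libraries known. All but the chemokine receptor and immediate early lists hold some of the 10 genes themselves. Of the CXC, CX3C and XC ligands 23 of 33 measured pairs of gene and class were higher in TG and 3 lower, and of the CC ligands 23 of 56 were higher and 9 lower, beside 18544 higher and 11806 lower of 112703 pairs over all genes. CXCL2 and CXCL12 gave 7 and 6 of the first 23, and CCL21 and CCL5 gave 9 and 4 of the second 23. Of the lower pairs CXCL12 gave 1 of the 3, and CCL26 and CCL5 gave 3 and 1 of the 9. In vascular endothelial-like nuclei CXCL10, CXCL9 and CXCL11, ligands of the receptor CXCR3 that interferon is known to induce, were higher in TG. CXCL10 had 194 CPM in TG and 66.6 CPM in WT (2.91, 2.55 to 3.33), CXCL9 had 68.7 and 34.6 CPM (1.99, 1.65 to 2.42), and CXCL11 had 63 UMIs in TG and 0 in WT, with a lower bound of the ratio of 7.97. CCL2, which attracts monocytes, was higher in TG in fibroblast-like nuclei, at 190 and 68.6 CPM (2.78, 2.54 to 3.04), next to the opposite difference of CCL26 there. In pericyte-like nuclei CXCL10 was lower in TG, at 4 UMIs against 43 in WT. In T or NK lymphocyte-like nuclei CCL4 (43.0 CPM in TG and 67.4 CPM in WT) and XCL1 (38.8 and 96.5 CPM) were lower in TG while CCL5 met no call.

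Chemokine receptors split, with 14 of 49 measured pairs higher in TG and 13 lower (28.6% and 26.5%, beside 16.5% and 10.5% over all genes). ACKR3, a decoy receptor that binds CXCL12, was lower in TG in fibroblast-like nuclei, at 46.7 CPM in TG and 102 CPM in WT (0.458, 0.401 to 0.521), where CXCL12 was higher. Of the 12 receptors measured in T or NK lymphocyte-like nuclei 2 were higher and 5 lower, against 17.0% and 14.8% of all genes there. In cardiomyocyte-like nuclei 8 of 12 receptors were higher in TG and 1 lower, against the 25.5% and 8.81% of all genes there. Markers of other cells differed there too. Those of T or NK lymphocytes summed to 71.0 CPM in TG and 37.4 CPM in WT, and those of macrophages to 76.0 and 52.4 CPM. Dendritic cell markers went the other way, at 46.8 and 55.5 CPM. The part of RNA from other cells in this count was not tested, and no difference is read from it.

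**Figure D4:**
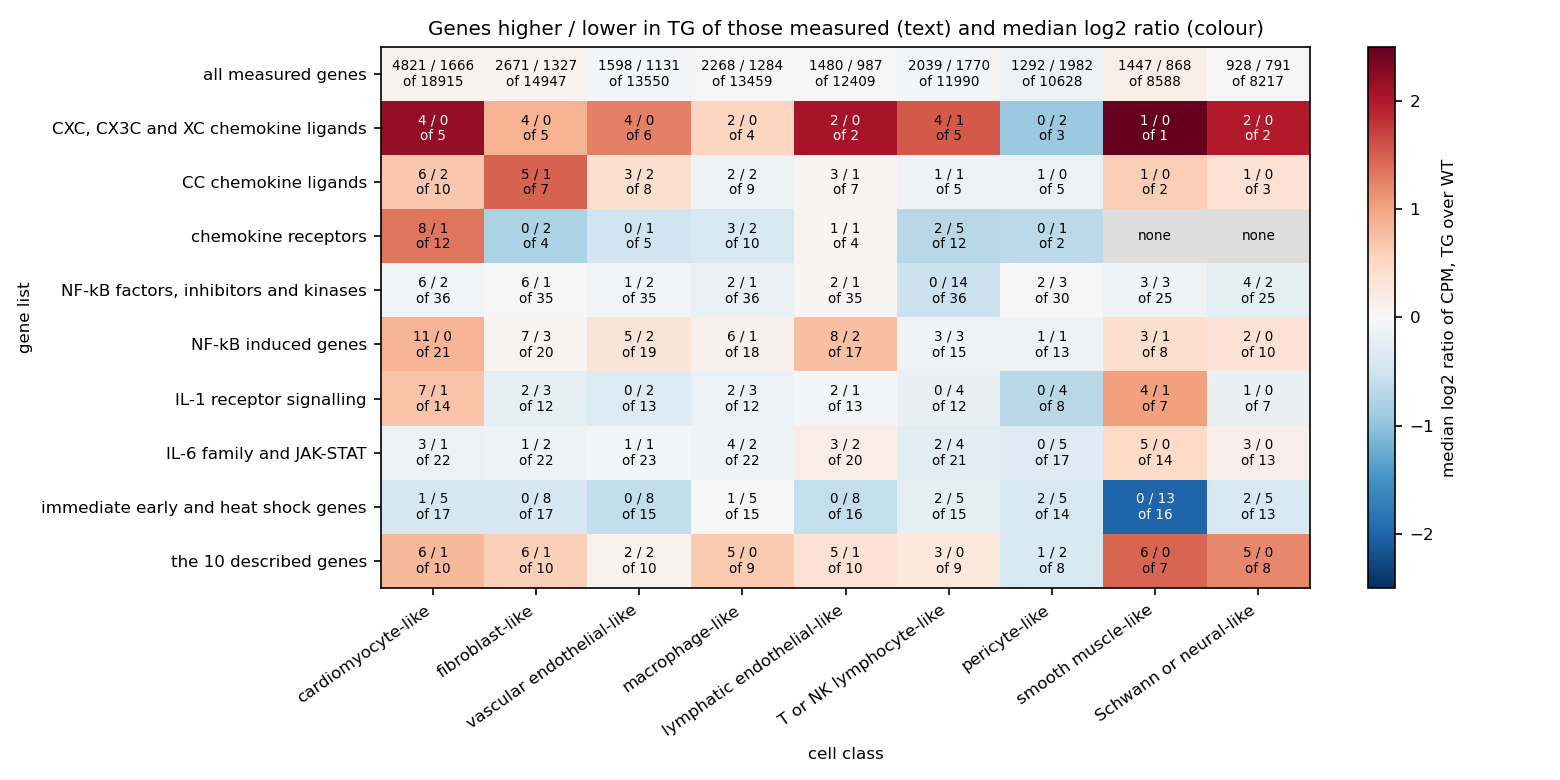
Median log2 ratio of CPM, TG over WT (colour), of 8 gene lists, all measured genes and the 10 described genes in each cell class, with the number higher and lower in TG of those measured written in each cell. The NF-kB list has 14 of 36 genes lower in T or NK lymphocyte-like nuclei, and the immediate early list has 13 of 16 lower in smooth muscle-like nuclei.

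Of the NF-kB factors, inhibitors and kinases 26 of 293 measured pairs were higher in TG, 29 lower and 238 neither. The shares were 8.87% higher and 9.90% lower, beside 16.5% and 10.5% over all genes. Class medians ran from -0.55 to 0.02 on the log2 scale, beside -0.15 to 0.15 for all measured genes. T or NK lymphocyte-like nuclei stood lowest, with 0 of 36 higher and 14 lower, where 17.0% of all genes were higher and 14.8% lower, and a median of -0.55 beside -0.04 for all genes of the class. REL, the c-Rel subunit, had 167 CPM there in TG and 382 CPM in WT (0.437, 0.386 to 0.494). The 14 markers of these lymphocytes were lower in TG as well, summing to 5637 CPM in TG and 10670 CPM in WT with none at 0. The part of this in the list, and in CCL4, XCL1 and the lower chemokine receptors of the class, was not tested. MALT1 in vascular endothelial-like nuclei (195 CPM in TG and 191 CPM in WT) and NFKBIZ in smooth muscle-like nuclei (294 and 288 CPM) met no call. Among genes that NF-kB induces, a list that shares CXCL2, CCL5, NFKBIA and NFKB1 with the 10, 46 of 141 pairs were higher and 13 lower. These were 32.6% and 9.22%, beside 16.5% and 10.5% over all genes. ICAM1, an adhesion molecule for leukocytes, was 135 CPM in TG and 108 CPM in WT in vascular endothelial-like nuclei (1.26) and met no call, whereas TNFAIP6 was lower in TG in fibroblast-like nuclei, at 95.8 and 150 CPM (0.641).

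Around IL1R1 and STAT3 the lists gave no common direction. Of the interleukin-1 receptor genes 18 of 98 measured pairs were higher in TG and 19 lower (18.4% and 19.4%). Of the interleukin-6 and JAK-STAT genes 22 of 174 were higher and 17 lower (12.6% and 9.77%). Over all genes the shares were 16.5% higher and 10.5% lower. IL33, an alarmin of the interleukin-1 family, was lower in TG in fibroblast-like nuclei, at 251 CPM in TG and 554 CPM in WT (0.453, 0.429 to 0.479). IL1RAP, the partner chain of IL1R1, was lower in TG in pericyte-like nuclei, at 161 and 291 CPM (0.554), and TLR4 was lower in macrophage-like nuclei, at 74.1 and 146 CPM (0.508). The pericyte markers were lower in TG too (2621 and 6583 CPM), and their part in the IL1RAP value was not tested. In T or NK lymphocyte-like nuclei JAK1 (570 CPM in TG and 977 CPM in WT) and STAT4 (340 and 636 CPM) were lower in TG. The markers of this class were lower in TG too, as given above, and their part in these values was not tested. LIFR in vascular endothelial-like nuclei (607 and 627 CPM) and IL6ST in fibroblast-like nuclei (501 and 702 CPM) met no call.

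Over the 18 points of 9 classes and 2 libraries, the genes most like each of the 10 were read from Pearson's r of log2(CPM + 1) among 9055 candidates, as a description of points that share libraries and depth. CXCL2 ran with UBR4, ADCY4 and ICAM1 (r of 0.88, 0.87 and 0.87), CXCL12 with FMO1, EBF3 and ENG (0.95, 0.91 and 0.90), CCL26 with GPX3, MATN4 and COL6A6 (0.89, 0.88 and 0.87), CCL21 with SYNPR, GPR182 and TMEM52 (0.95, 0.94 and 0.93) and CCL5 with S100A4, CD3E and IKZF3 (0.97, 0.94 and 0.94). ICAM1 is itself on the list of genes that NF-kB induces. IL1R1 ran with EHD2, MEOX2 and GPRC5B (0.94, 0.94 and 0.93), STAT3 with SHISA5, TPR and LSM8 (0.95, 0.95 and 0.94), NFKBIA with TEK, MAP1LC3B and MDK (0.94, 0.93 and 0.92), NFKB1 with CDC14A, LRBA and MFNG (0.94, 0.93 and 0.93) and MAP3K8 with TMEM62, SLC7A6OS and PGM2 (0.87, 0.86 and 0.86). Among the 10 themselves CXCL2 and NFKBIA were closest (r of 0.90), and CCL26 and CCL5 were furthest apart (-0.28).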

How the data were processed

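Nuclei from 1 TG and 1 WT library were measured. The authors deposited counts: filtered matrices of whole UMI counts per gene and barcode, made with 10x Chromium 3' chemistry 3.1 and Cell Ranger 3.1.0 on Sscrofa11.1, with Seurat 3.1.1 named as well, per the submitters' processing notes, while the file headers name Cell Ranger 5.0.0. Of the gene IDs, 15410 had no symbol, and 851 of these were named from the reference table. The 10 genes and the gene lists were chosen with earlier results of these data known.

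Nuclei with at least 500 genes and at most 5% mitochondrial UMIs were kept. Both libraries were clustered together in scanpy 1.11.5 (2000 variable genes, 30 components, 15 neighbours, Leiden resolution 1, leidenalg 0.10.2, igraph 0.11.9) with no batch correction. To be named, a cluster needed 60% of the markers of a class, never fewer than 3, at 20 CPM or more and at a log2 fold of 1 or more over a baseline (the 25th percentile over clusters), and 3 of them among its 200 leading genes. These naming thresholds, and those that set mixed clusters apart, were set after the clusters were seen, so classes may differ from the study's. Scrublet called 0 TG and 1197 WT nuclei (7.16%). With no call in TG its calls were not used, and doublets were set apart only as mixed clusters. UMIs were summed per class and library and scaled to CPM of nuclear-encoded UMIs. Intervals are exact Poisson for levels, exact conditional binomial for ratios and exact Clopper-Pearson for shares, at 95%, and cover counting error only. With 1 library per genotype no test was run. The call rule was run on simulated Poisson counts with large set changes, which shows only that it works as written. Those counts held no variation between animals and no RNA from other cells. Log2 ratios in medians add 0.5 to each count.

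All 10 genes were named in every class. The 3 genes most like each were taken by Pearson's r among genes with a symbol and at least 20 CPM at 1 point. From each list the 5 genes with the highest mean CPM in their highest class were eligible to be named, whatever their ratio, and some of these are not reported here. The CXCL10 value of pericyte-like nuclei was added after their values were seen. Alternatives changed nucleus filters, clustering, scaling (edgeR 4.0.16, DESeq2 1.42.0 in R 4.3.3), weighting, depth, mixed nuclei, free RNA and the call rule. Python 3.11.15, numpy 2.4.6, pandas 2.3.3 and scipy 1.17.1 were used. The smallest classes, mixed clusters and unnamed clusters were left out of the comparisons.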

Additional observations from a re-analysis of the deposited data

Results flagged for a closer look

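In 4 of the genes 1 class stood apart because its call was lower in TG while other classes were called higher, and these differences between classes were not tested. CXCL12 had a log2 ratio of -0.93 in pericyte-like nuclei. CCL5 had -0.73 in lymphatic endothelial-like nuclei, IL1R1 had -1.05 in vascular endothelial-like nuclei, and STAT3 had -0.72 in pericyte-like nuclei.

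Cluster 14, with 242 TG and 263 WT nuclei, got no name from the markers and entered no comparison, and 2 of the 9 genes measured in it were called. The share of all genes called in it was not computed, so nothing is read from this count. CXCL12 had a ratio of 4.74 (2.75 to 8.62), at 63.0 CPM in TG and 13.3 CPM in WT. CCL21 had a ratio of 1.67, at 345 CPM in TG and 207 CPM in WT. CXCL2 (0.832) and CCL5 (2.17, 0.903 to 5.57) met no call there.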

How the results depend on the processing

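No paired analysis was possible because each genotype has 1 library. Of the pairs of gene and class called, 39 were higher in TG. That count was 23 in nuclei thinned to 1000 UMIs, which hold fewer UMIs, and 23 with the free-RNA profile taken off. It was 28 to 41 under the other 12 of the 14 alternatives. The subtraction gave no value for cardiomyocyte-like nuclei, nor for pairs whose level fell to 0 or below in a library. Its counts rest on the fold alone and include pairs not called before, such as CCL5 in T or NK lymphocyte-like nuclei (2.85). The count of 7 lower pairs was 4 with the profile taken off, 4 at a threshold of 2-fold, and 6 to 10 under the other 12. With the profile taken off the 4 include NFKB1 in fibroblast-like (0.588) and smooth muscle-like nuclei (0.123), not called before. Over 81 pairs the alternatives gave 921 ratios, of which 765 stayed within the counting interval, 151 moved outside it, and 5 changed sign in 3 called pairs. The log2 ratio in pericyte-like nuclei was 0.29 for CXCL12 and 0.33 for STAT3 at Leiden resolution 0.5, and 0.029 and 0.072 with the 10 genes left out of the clustering. In thinned lymphatic endothelial-like nuclei it was 0.080 for CCL5. The cause was not tested. No smooth muscle-like class was found at resolution 0.5, with each library clustered on its own, or without the 10 genes. Scaling by TMM shifted all log2 ratios by -0.24 in smooth muscle-like to 0.10 in pericyte-like nuclei, and by DESeq2 size factors by -0.27 to 0.15. Weighting the vascular endothelial-like clusters equally was chosen after seeing the data. Depth limits the smooth muscle-like and Schwann or neural-like values most, where several genes rest on under 30 UMIs a library.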
